A study of Mus musculus with 7 samples.

Results

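The collagens were examined in RNA-seq counts of the retinal pigment epithelium (RPE) of aged mice, the layer that serves the photoreceptors from behind. They were taken as every row of the count table whose symbol has the form Col, a type number, a and a chain number, which gave 44 of 21861 rows: 11 fibrillar chains, 8 basement membrane chains and 25 of other types. The AAV-GFP group (3 libraries) had been given green fluorescent protein by adeno-associated virus (AAV). The AAV-GSTA4 group (4 libraries) had been given GSTA4, a glutathione transferase that conjugates lipid aldehydes, in the same way, and RPE of both groups was taken 12 weeks later. Both groups thus carried a vector, and no untreated or young group was part of the comparison. Strain, sex, age in numbers, the promoter of the vectors and whether each library came from a separate animal are not given in the sources used here, so p-values measure only the spread between these libraries.

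Collagens are triple-helical proteins of the extracellular matrix, each type built from its own set of alpha chains. Fibrillar types I, III and V form the banded fibres of connective tissue, type IV forms the network of basement membranes, and type VIII forms hexagonal lattices. The RPE rests on Bruch's membrane, a layered sheet that consists of the basement membranes of the RPE and of the choroidal capillaries, with collagen and elastic layers between them. Of the 44 collagen genes, 16 were listed as components of that sheet: types I, III, IV (except alpha 6), V (alpha 1 and 2), VI (alpha 1 to 3), VIII and XVIII.

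Libraries held 15329181 to 28998964 counts. The human GSTA4 transgene row (hGSTA4) did not pass edgeR's test (log2 fold change 10.67, adjusted p = 0.363), with 1 to 3 counts in each AAV-GFP library, and 4209, 5239, 45 and 1184 in AAV-GSTA4 libraries 1 to 4. The GFP transgene row (d2EGFP) had 99, 3970 and 2361 counts in AAV-GFP and 163, 64, 7 and 26 in AAV-GSTA4, so that the groups overlapped through replicate 1 of each. AAV-GFP replicate 3 stood apart from the rest, with a mean correlation of 0.838 against 0.910 to 0.926. Olfactory and vomeronasal receptor genes held 0.0826% of its counts, against 0.00288% to 0.0117% elsewhere. The 10 markers of RPE, the labelled cell type, summed to 3.03% to 9.39% of counts. In AAV-GFP replicate 3 the rod markers held more (4.92% against 3.03%). In AAV-GSTA4 replicate 2 the lens markers held more (10.0% against 5.35%). These RPE markers all had a higher fitted level in AAV-GSTA4, 4 of 10 at an unadjusted p under 0.05 (5.27% of all genes were higher at that level) and with a median log2 fold change of 0.69. The 10 lens markers held 10.0% of counts in AAV-GSTA4 replicate 2, against 0.269% to 1.79% in the other 6 libraries. Where one of the 23 collagens named by rule moved by over 1.5 times without AAV-GFP replicate 3 or AAV-GSTA4 replicate 2, its value without that library is given. In tissue RNA, fewer cells of a type and less RNA per cell cannot be told apart.

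Collagen transcripts were dominated by type VIII. The 44 genes together took 0.282%, 0.271% and 0.265% of all counts in AAV-GFP, given here and below in order of replicate. In AAV-GSTA4 they took 0.485%, 0.274%, 0.389% and 0.330%. AAV-GSTA4 replicate 2 lay among the AAV-GFP libraries, and the other 3 lay above them. On the TMM scale used for single genes below, the summed level was 1952 to 2856 CPM in AAV-GFP and 3025 to 5019 CPM in AAV-GSTA4, without overlap. Col8a1 and Col8a2 made up 49.7% to 72.1% of the collagen counts of a library. With Col9a3, Col4a3, Col18a1 and Col4a4 they made up 80.6% to 96.1%. Levels between genes were compared as CPM (the count relative to a common library size, scaled by edgeR's TMM factors) per kilobase of exon. On that scale the mean over all libraries was 251 for Col8a2, 131 for Col8a1 and 86.1 for Col9a3. It was 28.1 for Col18a1, 27.0 for Col4a3, 8.66 for Col4a4 and 6.92 for Col4a1. The first 3 overlapped with each other over libraries, at 135 to 452 for Col8a2, 46.3 to 232 for Col8a1 and 50.6 to 151 for Col9a3. Col9a3 lay above Col18a1 (13.5 to 45.9) in range, Col18a1 overlapped with Col4a3 (16.8 to 41.8), and Col4a3 lay above Col4a4 (4.85 to 15.1), which overlapped with Col4a1 (1.36 to 31.0). The fibrillar chains were lower, with Col1a2 at 2.36, Col3a1 at 2.01 and Col1a1 at 1.23 CPM per kilobase. The plot of the abundant collagens gives each library's level before the correction for length.

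**Figure D1:**
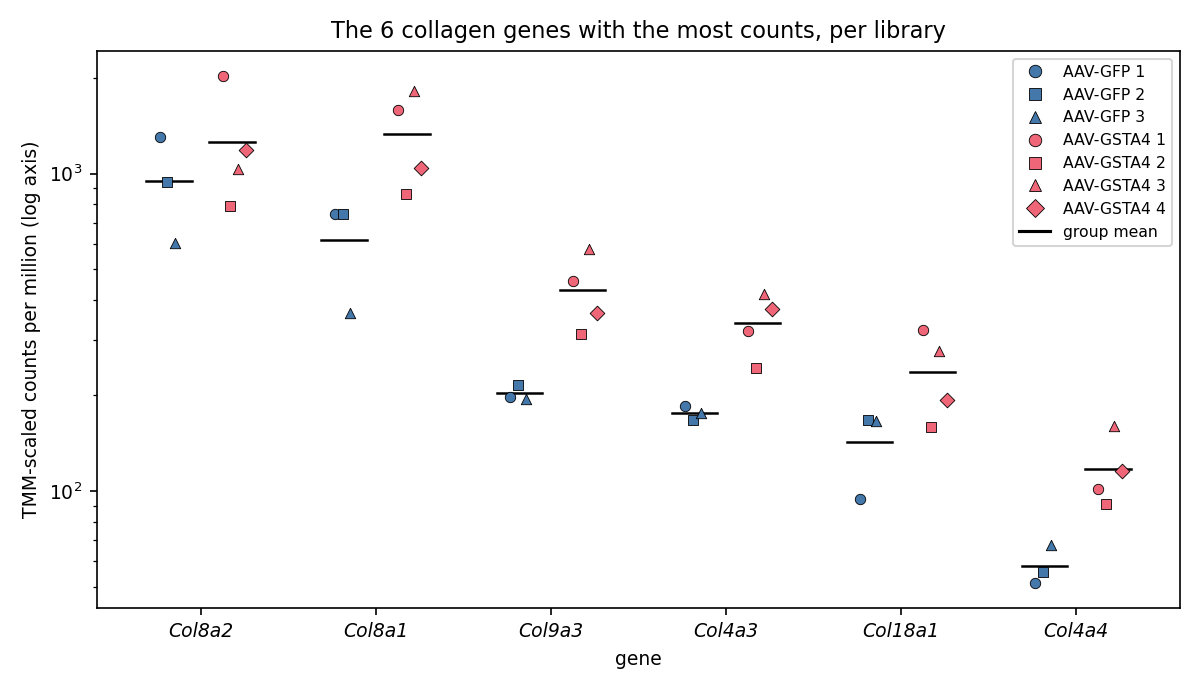
TMM-scaled CPM (log axis) of the 6 collagen genes with the most counts, 1 point per library and a bar at each group's mean. For Col8a1, Col9a3, Col4a3 and Col4a4 every AAV-GSTA4 point lies above every AAV-GFP point, whereas for Col8a2 and Col18a1 the groups overlap.

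The comparison of AAV-GSTA4 with AAV-GFP asked how these transcripts differed between the groups. Among the AAV-GSTA4 libraries hGSTA4 was highest in replicate 2 (251 CPM) and lowest in replicate 3 (2.64 CPM). Any relation of the transgene level to the collagens was not tested. A set of 38 collagen genes had enough counts to be tested, and none passed an adjusted p of 0.05 (edgeR quasi-likelihood, Benjamini-Hochberg over 15075 genes). The share of all genes tested that passed was 0%, and the smallest adjusted p was 0.363. At an unadjusted p under 0.05, 5 collagens were higher in AAV-GSTA4 (Col4a4, Col9a3, Col4a3, Col8a1 and Col18a1), or 13.2% of those tested against 5.27% of all genes. At the same level 3 were lower (Col2a1, Col19a1 and Col23a1), or 7.89% against 6.63% of all genes. Every AAV-GSTA4 library lay above every AAV-GFP library for 4 genes (Col4a3, Col4a4, Col8a1 and Col9a3), a share of 10.5% against 6.44% of all genes. Every one lay below for 3 (Col5a2, Col24a1 and Col23a1), a share of 7.89% against 5.61%. In DESeq2, Col9a3, Col4a3 and Col4a4 did pass, with adjusted p of 0.0124, 0.0172 and 0.0232. DESeq2 called 0.783% of all genes in that direction. Limma-voom with quality weights called none of the 38, and 0 of all 15075 genes. Its adjusted p was 0.0589 for Col4a3 and Col4a4 and 0.0627 for Col9a3.

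The classes had different medians. The median log2 fold change was 0.72 for the 8 basement membrane chains (7 higher, 1 lower), -0.46 for the 10 tested fibrillar chains (3 higher, 7 lower) and -0.57 for the 20 tested chains of other types (7 higher, 13 lower). For the 16 Bruch's membrane chains it was 0.66, with 12 higher and 4 lower. All 38 together had a median of -0.19, and all 15075 genes one of -0.071. The basement membrane median rested on AAV-GSTA4 replicate 2, the library rich in lens transcripts: without it the median was 0.0063, with 5 chains higher and 3 lower, and the Bruch's membrane median was 0.30, with 9 higher and 7 lower. Limma-voom, which gives outlying libraries less weight, put these medians at 0.035 and 0.0042. The median of the other types was -0.17 without AAV-GFP replicate 3 and -0.97 without AAV-GFP replicate 1. The number of lower collagens changed most when AAV-GFP replicate 3 or replicate 1 was left out. Leaving out single AAV-GSTA4 libraries gave 2 to 4 lower at an unadjusted p under 0.05, where 3.67% to 7.46% of all genes were. Without AAV-GFP replicate 3, 0 collagens were lower at an unadjusted p under 0.05 (5.74% of all genes were), and the median of the 38 was 0.088. Without AAV-GFP replicate 1, 5 were lower (7.28% of all genes were), and the median was -0.56. The median was -0.47 without AAV-GSTA4 replicate 2. The count of higher collagens was 4 or 5 whichever library was left out, where 3.21% to 6.76% of all genes were higher.

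**Figure D2:**
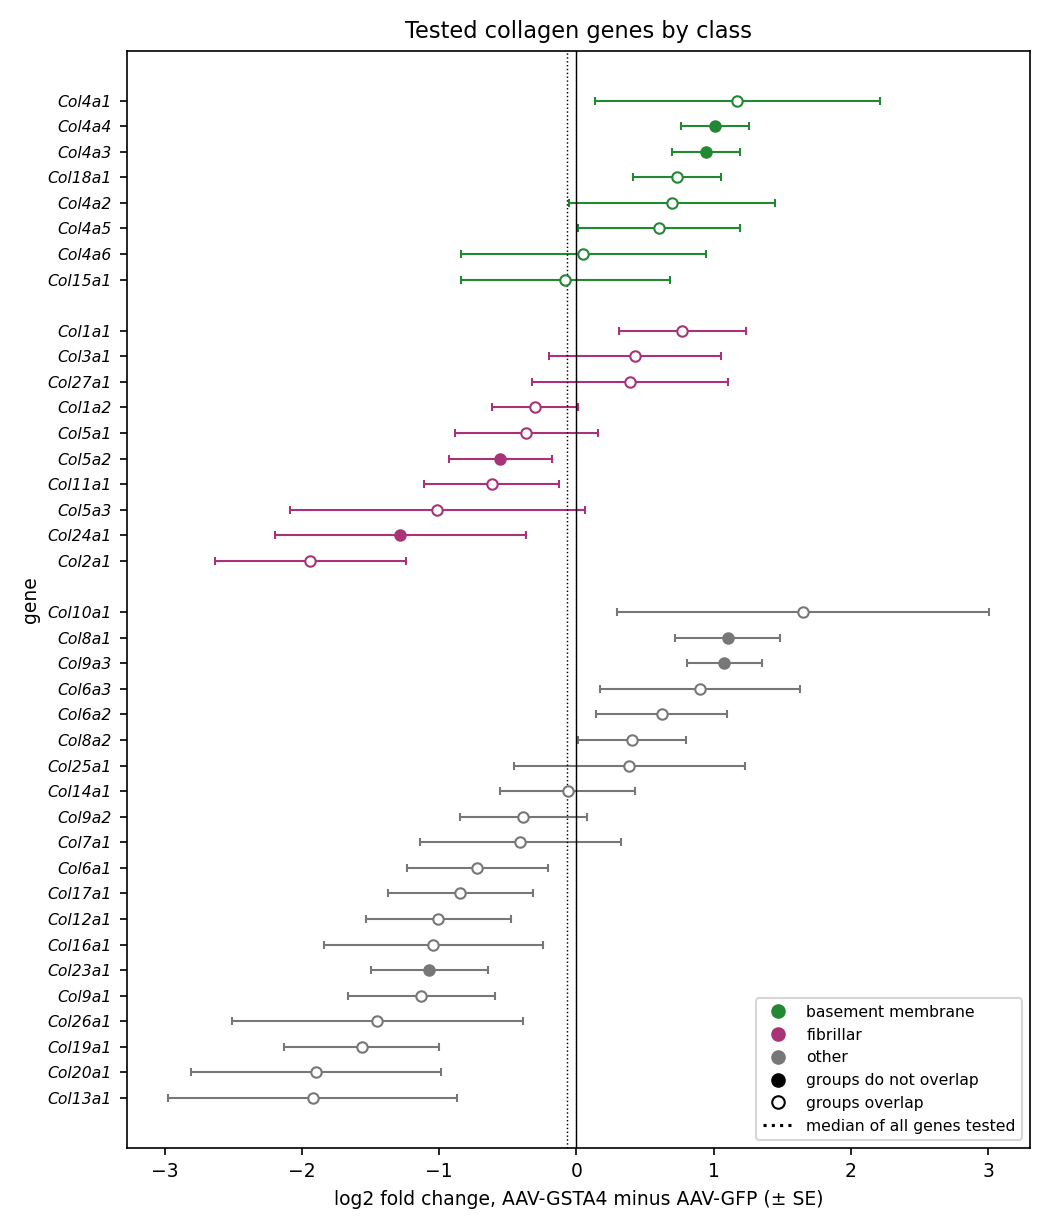
Log2 fold change (AAV-GSTA4 minus AAV-GFP) with its standard error for the 38 tested collagen genes, ordered within 3 classes. Filled points mark genes whose groups do not overlap, and the dotted line marks the median of all genes tested, -0.071.

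Basement membrane chains are described first. Type IV alpha 3 and alpha 4 chains assemble with alpha 5 into the network known from the kidney glomerulus, where their loss causes Alport syndrome. Col4a3 was at 185, 168 and 176 CPM in AAV-GFP and at 319.7, 244, 417 and 376 CPM in AAV-GSTA4. Col4a4 was at 51.5, 55.6 and 67.5 CPM in AAV-GFP and at 101, 91.2, 160.2 and 116 CPM in AAV-GSTA4. For both chains the AAV-GFP libraries lay close together and below all 4 AAV-GSTA4 libraries, of which replicate 2 was the lowest and replicate 3 the highest. The mean of Col4a3 was 176 ± 8.57 CPM (SD, n = 3) against 339 ± 74.6 CPM (SD, n = 4), which gave a log2 fold change of 0.94 ± 0.25 (SE). The mean of Col4a4 was 58.2 ± 8.34 CPM (SD, n = 3) against 117 ± 30.4 CPM (SD, n = 4), which gave a log2 fold change of 1.01 ± 0.25 (SE). The adjusted p was 0.363 for both in edgeR's quasi-likelihood test. Leaving out any single library gave 0.84 to 1.09 for Col4a3 and 0.83 to 1.13 for Col4a4. Y-linked transcripts were high in AAV-GFP replicate 1 and AAV-GSTA4 replicates 3 and 4 alone. Within those 3 libraries Col4a3 was at 185 against 376 to 417 CPM, and within the other 4 at 168 to 176 against 244 to 319.7 CPM.

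The pair of genes lies head to head on chromosome 1 of GRCm38. Their annotated starts are 72 bases apart, so a single window of 300 bases around the start of Col4a4 also holds the start of Col4a3. It is shown because these 2 chains had like differences. The sequence is chr1:82586800-82587099 (minus strand, GRCm38.p6, RefSeq), from 250 bases before the RefSeq start of Col4a4 to 50 after it:
Col4a4: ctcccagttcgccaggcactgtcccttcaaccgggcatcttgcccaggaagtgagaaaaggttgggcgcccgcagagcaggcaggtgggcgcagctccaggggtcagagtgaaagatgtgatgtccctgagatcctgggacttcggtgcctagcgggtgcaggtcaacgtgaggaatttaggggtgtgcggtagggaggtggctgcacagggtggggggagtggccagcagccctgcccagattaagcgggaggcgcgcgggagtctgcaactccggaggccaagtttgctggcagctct
Searches on both strands for the GC box, spelled GGGCGG, found no match in this window. Nor did searches for the pentamer CCAAT, and matches elsewhere are printed in capitals. The log2 ratio of Col4a3 to Col4a4 counts within a library was 1.84, 1.59 and 1.38 in AAV-GFP and 1.66, 1.42, 1.38 and 1.70 in AAV-GSTA4. The groups overlapped fully, with a difference of -0.067 between means of 1.61 ± 0.23 (SD, n = 3) and 1.54 ± 0.16 (SD, n = 4). An exact permutation test over all 35 relabellings, two-sided, gave p = 0.629, or 0.833 after Benjamini-Hochberg adjustment over 7 chain ratios.

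Col18a1 encodes the type XVIII core protein, whose end fragment is endostatin. It was at 94.6, 168 and 166 CPM in AAV-GFP and at 322, 159.6, 276 and 193 CPM in AAV-GSTA4. AAV-GSTA4 replicate 2 lay within the AAV-GFP range and the other 3 above it. The mean was 143 ± 41.8 CPM (SD, n = 3) against 238 ± 74.6 CPM (SD, n = 4). The log2 fold change came to 0.73 ± 0.32 (SE), at an adjusted p of 0.412 in edgeR's test. Col15a1, the related type XV chain, was near the limit of detection at 0.559 to 0.959 CPM, with a log2 fold change of -0.082.

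The other type IV chains behaved differently between libraries. Alpha 1 and alpha 2 form the common network of most basement membranes, including that of blood vessels and the lens capsule. Col4a1 was at 21.7, 24.8 and 43.8 CPM in AAV-GFP and at 12.6, 232, 10.2 and 16.8 CPM in AAV-GSTA4. Col4a2 was at 12.5, 16.1 and 18.5 CPM in AAV-GFP and at 11.2, 71.0, 5.11 and 14.4 CPM in AAV-GSTA4. AAV-GSTA4 replicate 2 was thus the highest library for both, and its alpha 1 level was more than that of any other library by a wide margin, while AAV-GSTA4 replicates 1 and 3 lay below all AAV-GFP libraries for both. The fitted log2 fold changes were 1.17 ± 1.04 (SE) for Col4a1 and 0.70 ± 0.75 (SE) for Col4a2. Without AAV-GSTA4 replicate 2 they were -1.18 and -0.61, so the direction of both rested on that library. It is also the library with 10.0% lens marker counts; the part of lens material in these values was not tested.

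Alpha 5 and alpha 6 showed the same library as the highest. Col4a5 was at 18.02, 33.1 and 7.77 CPM in AAV-GFP and at 14.1, 60.5, 16.3 and 28.3 CPM in AAV-GSTA4, with a log2 fold change of 0.60 ± 0.59 (SE). It was 0.0014 without AAV-GSTA4 replicate 2, 0.22 without AAV-GFP replicate 3 and 1.21 without AAV-GFP replicate 2. The partner that alpha 3 and alpha 4 need for assembly thus overlapped between the groups. Col4a6 was at 10.1, 12.6 and 11.9 CPM in AAV-GFP and at 1.16, 30.8, 2.11 and 13.5 CPM in AAV-GSTA4, with a log2 fold change of 0.048. Its lowest libraries, AAV-GSTA4 replicates 1 and 3, were also lowest in the 10 markers of the ocular surface epithelium (0.0487% and 0.0363% of counts, against 0.130% to 0.146% elsewhere). That relation was not tested.

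**Figure D3:**
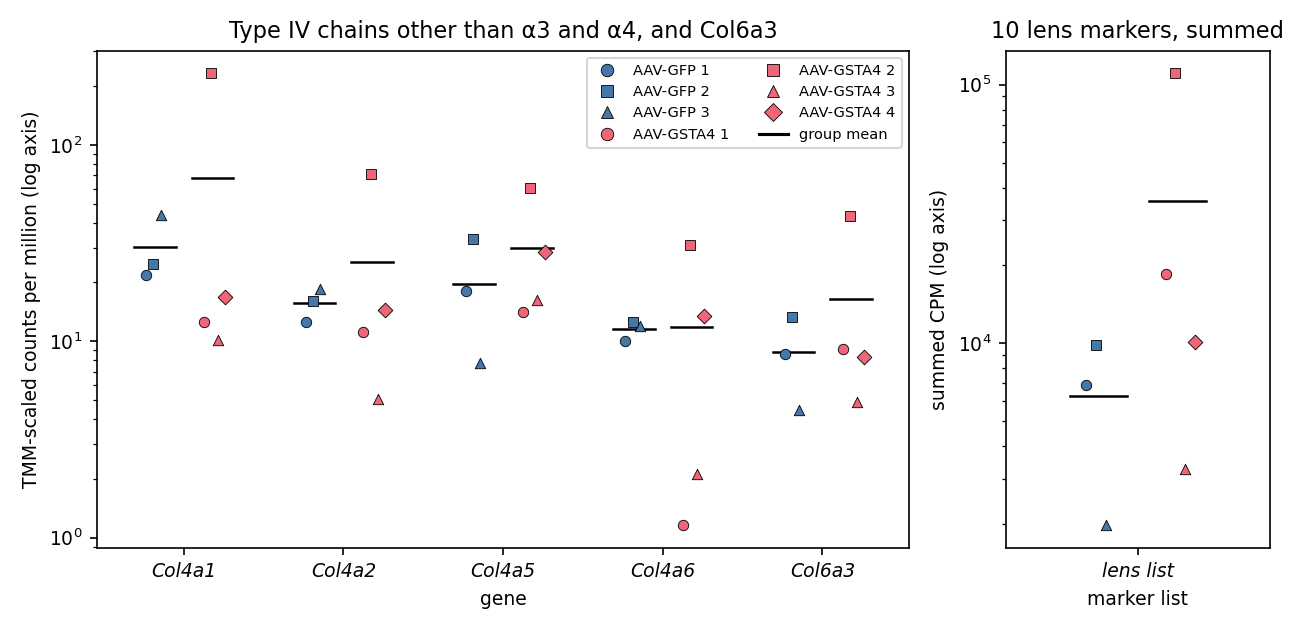
TMM-scaled CPM (log axis) of 4 type IV chains and Col6a3 per library, with the summed CPM of 10 lens markers on the right and bars at group means. AAV-GSTA4 replicate 2 (square) is the highest point of every column.

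Col4a1 and Col4a2 also lie head to head, on opposite strands of chromosome 8, with annotated starts 21 bases apart. Unlike Col4a3 and Col4a4, their annotated transcripts overlap at the starts. The window of Col4a2 is shown because both genes had the same outlying library. It is chr8:11312555-11312854 (plus strand, GRCm38.p6, RefSeq), with GC and CCAAT boxes on either strand in capitals:
Col4a2: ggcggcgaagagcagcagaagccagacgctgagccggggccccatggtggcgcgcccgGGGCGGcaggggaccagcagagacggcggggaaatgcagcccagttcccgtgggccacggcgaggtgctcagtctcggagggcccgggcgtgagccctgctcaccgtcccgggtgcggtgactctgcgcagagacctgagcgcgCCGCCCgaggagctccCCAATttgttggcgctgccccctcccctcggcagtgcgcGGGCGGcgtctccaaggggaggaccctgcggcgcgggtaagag
It held 3 GC boxes and 1 CCAAT box, and 78 of its 300 bases also belong to the window of Col4a1. The log2 ratio of Col4a1 to Col4a2 was 0.79, 0.62 and 1.24 in AAV-GFP and 0.17, 1.71, 0.99 and 0.22 in AAV-GSTA4. Its highest value was again that of AAV-GSTA4 replicate 2. The difference of means was -0.12 and the groups overlapped (exact permutation test, two-sided, p = 0.857, adjusted over 7 ratios 0.857).

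The type VIII chains form the short-chain lattice known from Descemet's membrane of the cornea and are also made by vascular cells. Col8a1 was at 749, 747 and 363 CPM in AAV-GFP and at 1592, 865, 1818 and 1042 CPM in AAV-GSTA4. All 4 AAV-GSTA4 libraries lay above the AAV-GFP libraries, with AAV-GSTA4 replicate 2 the closest and AAV-GFP replicate 3 well below the rest. The mean was 619.6 ± 222 CPM (SD, n = 3) against 1329 ± 449 CPM (SD, n = 4). The log2 fold change came to 1.10 ± 0.38 (SE), at an adjusted p of 0.373 in edgeR's quasi-likelihood test and 0.0725 in DESeq2. Col8a2 was at 1306, 939 and 606 CPM in AAV-GFP and at 2029, 793, 1031 and 1185 CPM in AAV-GSTA4. Its groups overlapped, since only AAV-GSTA4 replicate 1 lay above AAV-GFP replicate 1. Its log2 fold change came to 0.41 ± 0.40 (SE), at an adjusted p of 0.706 in edgeR's test. Without AAV-GFP replicate 3 it was 0.17, without AAV-GFP replicate 1 0.71 and without AAV-GSTA4 replicate 1 0.096.

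The ratio of the chains was compared next. The log2 ratio of Col8a1 to Col8a2 was -0.80, -0.33 and -0.74 in AAV-GFP, where Col8a2 had more counts in every library. It was -0.35, 0.13, 0.82 and -0.19 in AAV-GSTA4, where replicates 2 and 3 had more Col8a1 counts. This ratio is not corrected for length. Per kilobase of exon, Col8a1 and Col8a2 were at 110 and 177 CPM in AAV-GSTA4 replicate 2. In replicate 3 they were at 232 and 230 CPM. The means differed by 0.73, and an exact permutation test, two-sided, gave p = 0.0857 (0.3 after adjustment over 7 ratios). The smallest p that 3 libraries against 4 can give is 0.0286. The promoter windows of this pair are shown because the genes are the most abundant collagens and lie apart in the genome, Col8a1 at chr16:57754688-57754987 (minus strand) and Col8a2 at chr4:126286544-126286843 (plus strand), both GRCm38.p6 from RefSeq. Capitals mark GC boxes on either strand:
Col8a1: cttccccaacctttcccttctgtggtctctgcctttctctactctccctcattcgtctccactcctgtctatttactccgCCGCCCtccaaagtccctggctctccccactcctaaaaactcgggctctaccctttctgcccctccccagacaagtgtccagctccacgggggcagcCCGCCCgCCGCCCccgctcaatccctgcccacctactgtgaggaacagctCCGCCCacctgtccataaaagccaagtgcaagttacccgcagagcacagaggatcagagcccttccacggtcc
Col8a2: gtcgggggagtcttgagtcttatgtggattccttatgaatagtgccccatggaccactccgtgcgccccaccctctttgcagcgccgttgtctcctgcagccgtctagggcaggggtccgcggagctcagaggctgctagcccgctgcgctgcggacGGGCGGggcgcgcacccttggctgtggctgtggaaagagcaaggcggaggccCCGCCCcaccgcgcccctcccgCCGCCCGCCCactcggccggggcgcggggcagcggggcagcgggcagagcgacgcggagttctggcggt
Each window held 4 GC boxes, of which 2 overlap in Col8a2, and neither held a CCAAT box. Among the collagens, 35 of 44 symbols matched the promoter table, with 38 windows. The GC box was in 60.5% of these 38 windows and in 35.7% of all 32851 windows of the same length. The CCAAT box was in 34.2% and 37.4%, and the TATA box (TATAAA) in 13.2% and 13.6%. The letters CATGTG, the core of the M-box read by the melanocyte and RPE factor MITF, were in 7.89% of collagen windows and 14.2% of all windows. CACGTG was in 0 of the 38 windows and 7.15% of all windows. TAATCC, a core read by OTX2, was in 0 of the 38 and 7.06% of all. These matches are descriptions of letters and not of binding.

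Type IX collagen, a fibril-associated type known from cartilage and vitreous, needs alpha 1, alpha 2 and alpha 3 chains. Col9a3 was at 198, 216 and 195 CPM in AAV-GFP and at 458, 312, 581 and 363 CPM in AAV-GSTA4. The AAV-GFP libraries were nearly equal and all 4 AAV-GSTA4 libraries lay above them. The mean was 203 ± 11.4 CPM (SD, n = 3) against 428 ± 118 CPM (SD, n = 4), which gave a log2 fold change of 1.08 ± 0.27 (SE) with an adjusted p of 0.363 in edgeR's test. Leaving out any library gave 0.91 to 1.22. It was the 1 collagen whose groups stayed apart in the upward direction when counts were scaled by library totals alone. The partner chains were far lower: per kilobase, Col9a1 was at 3.91 and Col9a2 at 1.62 CPM, against 86.1 for Col9a3. They did not share its direction, with log2 fold changes of -1.13 for Col9a1 and -0.39 for Col9a2. The 10 cartilage markers summed to 0.00861% to 0.0206% of counts, most of them from Sox9, a transcription factor made in other cells as well, at 80.3 to 201 CPM. Cnmd was at 4.23 to 21.8 CPM, Acan had 0 counts in 5 of 7 libraries, and Snorc had 0 in all 7. The part of cartilage in the type IX values was not tested.

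RPE markers were higher beside these collagens. The mean log2 CPM of the 10 RPE markers was 10.09, 9.95 and 8.90 in AAV-GFP and 10.36, 10.00, 10.74 and 10.51 in AAV-GSTA4, a difference of 0.75. Set relative to that mean in each library, a scale chosen after the data were seen, the difference was 0.16 for Col4a3, 0.23 for Col4a4 and 0.28 for Col9a3. It was 0.36 for Col8a1, -0.028 for Col18a1 and -0.37 for Col8a2. Exact permutation tests, two-sided, of these 6 genes gave p of 0.2 to 0.943, and their groups overlapped. For Col4a3, Col4a4 and Col9a3 the overlap came from AAV-GFP replicate 3 alone. It was at -1.44, -2.82 and -1.29, above every AAV-GSTA4 library, while AAV-GFP replicates 1 and 2 lay below every one. Col8a1, Col18a1 and Col8a2 overlapped without that library as well. Against the same reference Col1a2 was at -1.07, Col5a1 at -0.98, Col5a2 at -1.30, Col6a1 at -1.41 and Col23a1 at -1.98, each with an exact permutation p = 0.0286, the smallest this design allows. In all 23 genes were compared this way, and after Benjamini-Hochberg adjustment over them these 5 were at 0.132 and did not pass. The reference lowers the difference of every gene by 0.75, and the share of all genes at that p was not computed. The share of RPE-derived RNA in each library was not measured, and its part in these differences was not tested.

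**Figure D4:**
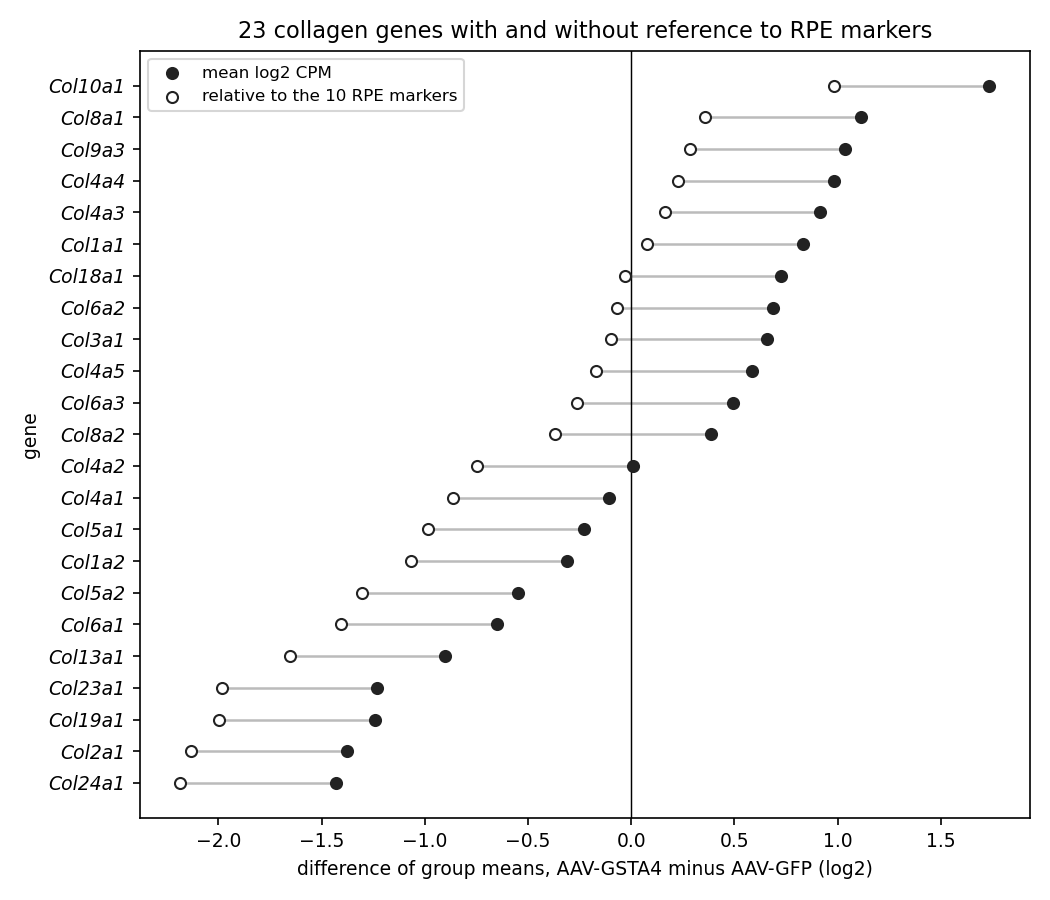
Difference of group means on the log2 scale for 23 collagen genes, as log2 CPM (filled) and relative to the mean log2 CPM of 10 RPE markers (open). The open points lie 0.75 lower throughout, so the difference of Col8a1 goes from 1.11 to 0.36 and that of Col1a2 from -0.31 to -1.07.

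Fibrillar chains are products of fibroblasts in sclera and choroid, and they are part of the collagen layers of Bruch's membrane. Col1a1 was at 6.19, 8.29 and 2.73 CPM in AAV-GFP and at 10.3, 5.42, 13.3 and 10.3 CPM in AAV-GSTA4. Its partner chain Col1a2 was at 44.4, 30.1 and 24.0 CPM in AAV-GFP and at 27.2, 15.9, 28.4 and 34.8 CPM in AAV-GSTA4. Both overlapped between groups, with log2 fold changes of 0.77 ± 0.46 (SE) and -0.30 ± 0.31 (SE) and adjusted p of 0.519 and 0.723 in edgeR's test. Without AAV-GFP replicate 3 they were 0.43 and -0.48, and for Col1a2 the value was -0.11 without AAV-GSTA4 replicate 2 and -0.021 without AAV-GFP replicate 1. Their ratio did not overlap: the log2 ratio of Col1a1 to Col1a2 was -2.84, -1.86 and -3.12 in AAV-GFP and -1.40, -1.55, -1.10 and -1.76 in AAV-GSTA4. The difference was 1.16, with an exact permutation p = 0.0286, the smallest possible, and 0.2 after adjustment over 7 ratios, which does not pass. Col1a1 and Col1a2 chains join in a fixed proportion in type I collagen, with Col1a1 the more frequent, whereas here Col1a2 had more counts in every library. Those counts are of RNA and not corrected for length. Per kilobase of exon Col1a2 was also higher in every library, with means of 2.36 and 1.23 CPM. The closest values were 2.29 and 2.02 CPM, in AAV-GSTA4 replicate 3.

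The remaining fibrillar chains were low. Col3a1, the type III chain, was at 26.03, 19.8 and 3.65 CPM in AAV-GFP and at 24.8, 9.88, 38.2 and 15.7 CPM in AAV-GSTA4, with a log2 fold change of 0.42 ± 0.63 (SE). It was -0.048 without AAV-GFP replicate 3, 0.92 without AAV-GFP replicate 1, 0.69 without AAV-GSTA4 replicate 2 and 0.039 without AAV-GSTA4 replicate 3. Its ratio to Col1a1 differed by -0.18 on the log2 scale (exact permutation p = 0.714, adjusted over 7 ratios 0.833). Type V nucleates fibres: Col5a1 was at 2.25 to 8.64 CPM in AAV-GFP and 2.54 to 5.97 CPM in AAV-GSTA4, with a log2 fold change of -0.37 ± 0.52 (SE). It was -0.75 without AAV-GFP replicate 3, -0.16 without AAV-GSTA4 replicate 2 and 0.033 without AAV-GFP replicate 2. Col5a2 was at 5.21, 4.67 and 5.90 CPM in AAV-GFP and at 4.00, 3.12, 4.11 and 3.10 CPM in AAV-GSTA4. Every AAV-GSTA4 library thus lay below every AAV-GFP library, although the log2 fold change of -0.56 ± 0.38 (SE) had an adjusted p of 0.567 in edgeR's test. The ratio of Col5a1 to Col5a2 differed by 0.33 (exact permutation p = 0.686, adjusted 0.833), and by -0.33 without AAV-GFP replicate 3. Col24a1, a minor fibrillar chain, was also without overlap at 1.04 to 1.97 CPM in AAV-GFP and 0.0526 to 0.921 CPM in AAV-GSTA4, with a log2 fold change of -1.28 ± 0.92 (SE). The 10 fibroblast markers held 0.0424% to 0.116% of counts in AAV-GFP and 0.0465% to 0.0753% in AAV-GSTA4, and 7 of 10 had lower fitted levels in AAV-GSTA4; their part in the fibrillar values was not tested.

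Col2a1, the main chain of cartilage and vitreous fibres, was at 3.12, 6.37 and 29.6 CPM in AAV-GFP and at 1.95, 4.31, 2.64 and 4.61 CPM in AAV-GSTA4. A single library, AAV-GFP replicate 3, was high, and the other 6 overlapped. The log2 fold change came to -1.94 ± 0.70 (SE), at an adjusted p of 0.373 in edgeR's test, and without that library it was -0.49. Col19a1, a fibril-associated chain, was at 2.79, 7.99 and 16.7 CPM in AAV-GFP and at 4.15, 2.11, 3.35 and 2.76 CPM in AAV-GSTA4. It had the same high library, and its log2 fold change of -1.57 ± 0.56 (SE) was -0.81 without it. Of the 6 collagens with too few counts to be tested, 5 had most of their counts in AAV-GFP replicate 3, for instance 68 of the Col22a1 counts, against 0 to 14 in the other libraries. Col11a2, Col28a1, Col6a4 and Col6a6 had 63, 49, 76 and 81 counts there and at most 15 elsewhere, and Col6a5 had 14 or fewer in every library. This is also the library with receptor-gene counts of the olfactory and vomeronasal families, which was set beside these values and not tested as their source.

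**Figure D5:**
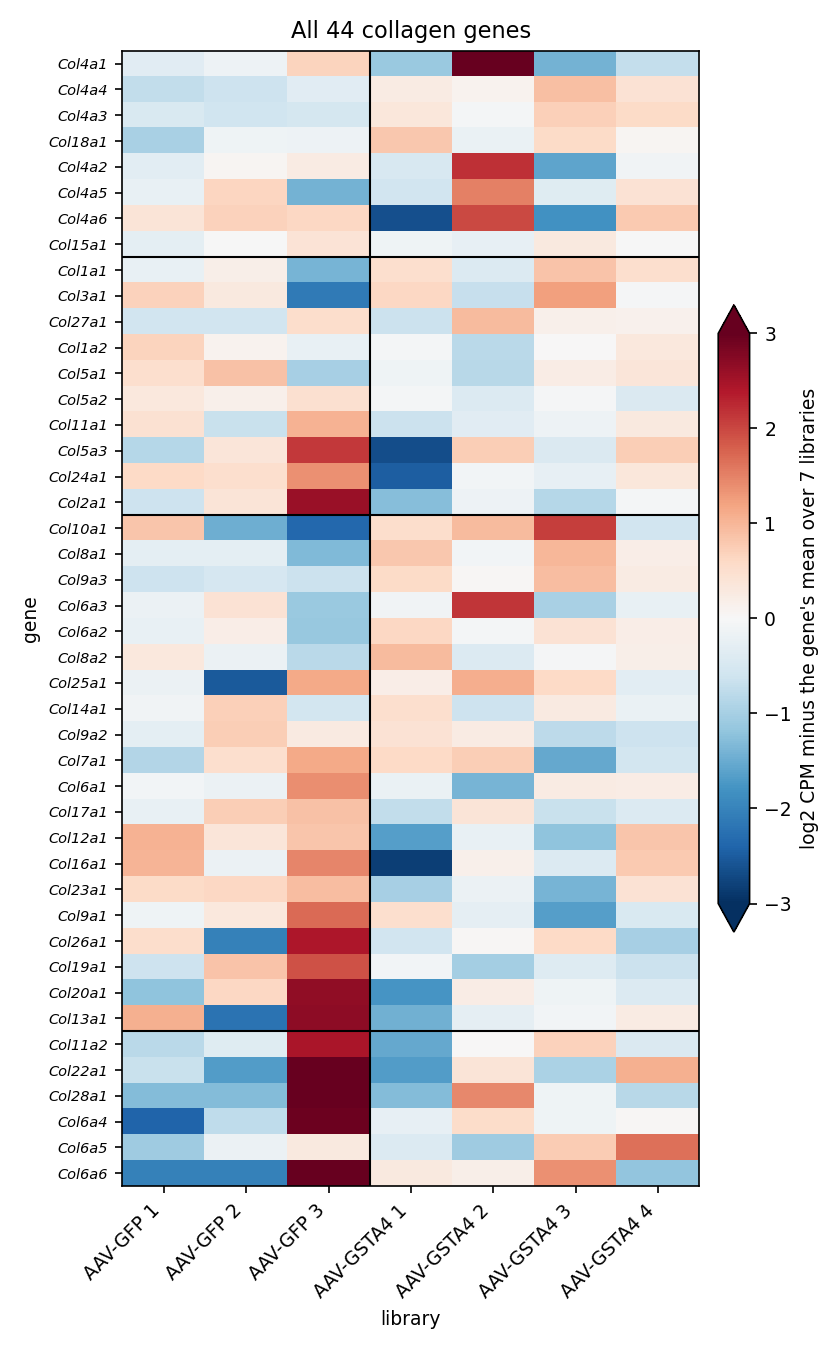
Log2 CPM of each collagen gene minus its mean over the 7 libraries, with libraries in columns and genes in rows, ordered by class and then the 6 genes that were not tested. Red marks higher and blue lower values; AAV-GFP replicate 3 is red for most of the low-count genes at the bottom.

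Type VI forms beaded microfilaments from alpha 1, alpha 2 and one longer chain. Col6a1 was at 8.15, 7.64 and 22.98 CPM in AAV-GFP and at 7.52, 3.26, 10.3 and 10.2 CPM in AAV-GSTA4, with AAV-GFP replicate 3 the highest. Col6a2 was at 1.54 to 4.05 CPM in AAV-GFP and 3.36 to 5.42 CPM in AAV-GSTA4. Their log2 fold changes were -0.72 ± 0.51 (SE) and 0.62 ± 0.48 (SE), and the difference of -1.36 in their log2 ratio gave an exact permutation p = 0.171 (adjusted over 7 ratios 0.399). Without AAV-GFP replicate 3 they were -0.012 and 0.32, and the difference in the ratio was -0.46. Col6a1 was -0.45 without AAV-GSTA4 replicate 2, and Col6a2 0.96 without AAV-GFP replicate 2. Col6a3 was at 8.66, 13.2 and 4.46 CPM in AAV-GFP and at 9.10, 43.2, 4.93 and 8.29 CPM in AAV-GSTA4, so that AAV-GSTA4 replicate 2 was again high. Its log2 fold change was 0.90 ± 0.73 (SE), and it was -0.23 without that library and 0.59 without AAV-GFP replicate 3.

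Among the membrane-bound collagens, Col23a1 was at 16.4, 16.9 and 21.0 CPM in AAV-GFP and at 5.52, 9.83, 4.17 and 14.9 CPM in AAV-GSTA4. All AAV-GSTA4 libraries lay below the AAV-GFP libraries, with replicate 4 close to them. The mean was 18.1 ± 2.53 CPM (SD, n = 3) against 8.59 ± 4.82 CPM (SD, n = 4), which gave a log2 fold change of -1.07 ± 0.42 (SE) with an adjusted p of 0.384 in edgeR's test. The lowest libraries, AAV-GSTA4 replicates 1 and 3, were those lowest in ocular surface markers; that relation was not tested. Col12a1, a fibril-associated chain, was at 34.5, 21.4 and 29.7 CPM in AAV-GFP and at 5.26, 14.4, 7.16 and 29.8 CPM in AAV-GSTA4, with the same 2 libraries the lowest and a log2 fold change of -1.01. Col13a1, another membrane-bound type, ranged from 0.116 to 6.19 CPM in AAV-GFP and from 0.263 to 1.07 CPM in AAV-GSTA4, with a log2 fold change of -1.92 ± 1.05 (SE) that was -0.49 without AAV-GFP replicate 3. Col10a1, the hypertrophic cartilage chain, had the highest fitted log2 fold change of the 38, 1.65 ± 1.35 (SE), on only 16, 2 and 0 counts in AAV-GFP and 11, 17, 32 and 6 in AAV-GSTA4. It was 1.10 without AAV-GFP replicate 3, 4.24 without AAV-GFP replicate 1 and 0.99 without AAV-GSTA4 replicate 3.

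The genes that make, trim and bind collagen were then set beside the chains. None had an adjusted p under 0.05 in edgeR. Of 20 non-collagen basement membrane genes, all tested, 5 were higher and 0 lower at an unadjusted p under 0.05, against 5.27% and 6.63% of all genes, and the median log2 fold change was 0.32. Without AAV-GSTA4 replicate 2, 4 were higher and 2 lower, against 6.11% and 5.28% of all genes. Nid2, which links laminin to type IV collagen, was at 52.0 ± 2.46 CPM (SD, n = 3) against 109.6 ± 28.1 CPM (SD, n = 4), which gave a log2 fold change of 1.08 ± 0.24 (SE). The laminin chains Lamb2 and Lamb1 had log2 fold changes of 0.77 and 0.83 and Frem1, of the Fraser complex, 1.24. All 4 had groups that did not overlap, or 20% of the list where 6.44% of all genes were higher without overlap, and in DESeq2 the adjusted p was 0.0124 for Nid2, 0.0473 for Lamb2, 0.0492 for Frem1 and 0.0847 for Lamb1.

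Of 22 biosynthesis genes, 21 were tested, with 1 higher (4.76%, against 5.27% of all genes) and 3 lower (14.3%, against 6.63%) at an unadjusted p under 0.05 and a median log2 fold change of 0.20. The lower ones were Crtap (-0.88) and P3h1 (-0.89), partners in the prolyl 3-hydroxylation complex, and Colgalt2 (-1.13), a collagen galactosyltransferase. The higher one was Mia3 (0.57), which loads procollagen into transport carriers. Of 14 processing and cross-linking genes, all tested, 2 were higher (14.3%, against 5.27% of all genes) and 0 lower, with a median of 0.49. They were Pcolce, an enhancer of procollagen C-proteinase, at 259.8 ± 47.0 CPM (SD, n = 3) against 401 ± 93.4 CPM (SD, n = 4), and the lysyl oxidase-like gene Loxl4 (0.92). Loxl1 had a log2 fold change of 0.73 and Pcolce2 one of 0.67.

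Collagen receptors had a negative median. Of 10 listed, 8 were tested and none reached an unadjusted p under 0.05, with a median of -0.45. Lair1, an inhibitory receptor of leukocytes (-0.74), and Ddr2, a receptor kinase for fibrillar collagen (-0.70), had groups that did not overlap, 2 of 8 receptors where 5.61% of all genes were lower without overlap. Mrc2, which takes up collagen, had a log2 fold change of -0.90, and the integrin chain Itga11 one of -1.72. The small leucine-rich proteoglycans, which bind collagen fibres, had a median of -0.47 over 10 tested genes. At an unadjusted p under 0.05, 0 were higher and 1 was lower (10%, against 6.63% of all genes). The lower one was Prelp (-0.71), and Omd (-0.86), Dcn (-0.58) and Lum (-0.59) followed.

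Markers of the neighbouring cells gave the following levels beside these groups. The 10 rod markers were all lower, 9 of them at an unadjusted p under 0.05, where 6.63% of all genes were lower. They held 1.18%, 2.17% and 4.92% of counts in AAV-GFP against 0.606% to 1.17% in AAV-GSTA4. Endothelial markers held 0.00421% to 0.0242% and 0.00408% to 0.00659%, with the highest share in AAV-GFP replicate 3. Mural cell markers held 0.0258% to 0.0392% and 0.0285% to 0.0416%, Schwann cell markers 0.0325% to 0.0473% and 0.0417% to 0.0602%, and macrophage markers 0.0637% to 0.0883% and 0.0594% to 0.0786%. Melanocyte markers held 0.181% to 0.389% and 0.148% to 0.267%, and Müller glia markers 0.326% to 0.344% and 0.318% to 0.480%. Most Müller glia counts were of Rlbp1, which is also an RPE marker (61145 of 74637 in AAV-GFP replicate 1), and the median log2 fold change of that list was -0.41. Of the 10 lens markers 9 were tested and all 9 had higher fitted levels in AAV-GSTA4, with overlap between the groups for each. At an unadjusted p under 0.05, 6 of these lens markers were higher, where 5.27% of all genes were. Their part in the collagen values was not tested.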

How the data were processed

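Polyadenylated RNA was amplified as full-length cDNA (SMART-Seq v4, a low-input kit) and made into libraries with Nextera XT, per the labels' protocols. The authors deposited raw read counts per gene symbol. The submitters' processing notes name STAR 2.7.1a and featureCounts 1.6.2 and both mouse and human builds; annotation, strand and multi-mapping rules are not given in the sources used here. No molecular identifiers are mentioned, so shares and the floor of 3 counts cover counting error only.

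From the deposited counts, edgeR 4.0.16 (R 4.3.3) was run on all 7 libraries, with TMM scaling, its default expression filter by group, robust quasi-likelihood and Benjamini-Hochberg adjustment over 15075 genes, at a threshold of 0.05. CPM values are TMM-scaled, shares are of raw totals, and log2 CPM used a prior count of 2. Chain ratios added 0.5 to each count. A gene was called without overlap where every library of one group lay above every library of the other. Exon lengths and positions come from GENCODE M21 (GRCm38), which may differ from the annotation counted.

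The collagens and all gene lists were chosen with earlier results of these data known. Named were the Bruch's membrane list, every collagen at an unadjusted p under 0.05 or without overlap, the 2 largest fold changes each way, and up to 4 genes with the smallest p per related list. Col4a6, Col12a1, Col9a1, Col9a2, Col15a1 and the untested genes were added after their values were seen. Alternatives were other scalings, other filters, DESeq2 1.42.0, limma-voom 3.58.1, replicate blocks, a Y-linked covariate and leaving out each library.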

Additional observations from a re-analysis of the deposited data

Results flagged for a closer look

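Among 36 results examined in the 4 AAV-GSTA4 libraries, 3 had a single library far from the others, and chance alone would mark about 5% of such groups. All 3 came from AAV-GSTA4 replicate 2. Col4a1 was at 231.7 CPM there and at 10.2 to 16.8 CPM in the other AAV-GSTA4 libraries. Col4a2 was at 71.04 CPM, against 5.11 to 14.4 CPM. Col6a3 was at 43.24 CPM, against 4.93 to 9.10 CPM. The 10 lens markers held 10.0% of the counts of that library and 0.285% to 1.79% of the counts of the other 3. Their part in the 3 genes was not tested.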

How the results depend on the processing

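With library totals as the only scaling the median over all genes tested went from -0.071 to -0.37 (log2), and that of the collagens from -0.19 to -0.49. At an unadjusted p under 0.05, 6 of 38 collagens rather than 3 were then lower. The share of all genes lower at that level went from 6.63% to 14.1% as well. On that scaling 1 collagen rather than 4 lay higher without overlap, and the share of all genes doing so was not computed. The share of all genes higher at an unadjusted p under 0.05 went from 5.27% to 1.78%. DESeq2 called 3 collagens at an adjusted p under 0.05. It had 5 lower at an unadjusted p under 0.05, where 7.76% of all genes were lower. The replicate numbers did not pair the libraries: same-numbered deviations correlated at -0.0889 to 0.00904 by title and -0.128 to 0.0146 by library name. At an unadjusted p under 0.05, a replicate block by title left 2 collagens higher (1.94% of all genes were higher). A block by library name gave 5 lower at that level (3.87% of all genes were lower). Leaving out single libraries gave 0 to 5 collagens lower at that level, where 3.67% to 7.46% of all genes were lower. It gave 3 to 7 collagens lower without overlap, with the 7 found without AAV-GFP replicate 1. The share of all genes without overlap was not computed there, and groups with fewer libraries separate more easily. The median of the collagens was -0.56 to 0.088. The log2 fold change of hGSTA4, 10.67 at an adjusted p of 0.363 in edgeR, was 10.78 in DESeq2 (1.89e-09), 8.73 in limma-voom (0.519), 10.84 and 9.76 with the replicate blocks (0.00827 and 0.0496 in edgeR), and 10.15 to 11.39 with single libraries left out (0.0173 to 0.579).

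Among single genes, class medians and chain ratios, none with a call in edgeR, the sign changed in 30 cases, while 457 kept direction and side of the threshold and 18 class medians moved by more than the spread between replicates. With the replicate blocks by title and by library name the basement membrane median was 0.28 and 0.069. Limma-voom gave Col3a1 -0.024, Col4a1 -0.23, Col4a2 -0.14, Col4a5 -0.024, Col6a1 0.032, Col6a3 -0.24 and Col13a1 1.28. The block by title gave Col4a1 -0.10, and the block by library name Col4a1 -1.15, Col4a2 -0.71 and Col6a3 -0.14. Relative to the RPE markers, Col3a1 was -0.10, Col4a1 -0.86, Col4a2 -0.75, Col4a5 -0.17, Col6a2 -0.067, Col6a3 -0.26, Col8a2 -0.37 and Col18a1 -0.028. With single libraries left out the values spanned -0.048 to 0.92 for Col3a1, -1.18 to 1.56 for Col4a1, -0.61 to 1.06 for Col4a2, -0.75 to 0.033 for Col5a1 and -0.23 to 1.32 for Col6a3. The ratios spanned -0.59 to 0.23 for Col3a1 to Col1a1, -0.33 to 0.80 for Col5a1 to Col5a2, -0.43 to 0.087 for Col4a1 to Col4a2 and -0.18 to 0.052 for Col4a3 to Col4a4. The cause of these changes was not tested. Chains with under 20 counts in most libraries, such as Col10a1 and Col15a1, are limited by depth.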
